A study of Saccharomyces cerevisiae with 7 samples.

Results

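PGA3, MRP13 and VTC4 are 3 protein-coding genes of budding yeast that are each followed closely by another gene on the same strand. They were found by systematic name among the 337 genes for which a readthrough index (RTI) was listed in GRO-seq libraries, a run-on method that sequences the nascent RNA of polymerases engaged on the template. The genes were chosen from their position before a close tandem gene and with their RTI in both strains already known, so their own values are a description and carry no test. The libraries come from TFIIB-mutant sua7-1 cells (3 libraries, replicates 2, 3 and 4) and from wild type (WT) cells (4 libraries, replicates 1 to 4), both in the BY4733 background with MATα and the alleles his3Δ200, trp1Δ63, leu2Δ0, met15Δ0 and ura3Δ0. The sua7-1 allele replaces a glutamate of TFIIB by lysine, and every cell of the mutant carries it. Both strains were grown in YPD at 30 °C and collected when the A600 was 0.8, and permeabilized cells then transcribed with BrUTP for 5 min. The RTI divides the reads of a downstream window, which begins 50 nt and ends 500 nt past the mRNA 3′ end, by those of the mirror window upstream, so an RTI above 1 means more reads after the mRNA end than before it.

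At the end of a yeast gene, AU-rich elements of the transcript direct its cleavage and polyadenylation, and the polymerase is then released from the template. General factors of cleavage, such as CF1 and CPF, and the exonuclease Rat1 take part in this step. In a tandem arrangement, the terminator of the upstream gene lies just before the promoter of the downstream gene, and a polymerase that is not released runs on into that promoter. Reads on the same strand after such a gene can come from readthrough or from the downstream gene's own transcription, and the RTI counts both alike. These sources cannot be told apart in these data.

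The geometry of the 3 loci was read from the R64 annotation. PGA3 (YML125C), a putative cytochrome b5 reductase, has a coding span of 939 nt at chrXIII:20761-21699 on the reverse strand. ERG13, encoding the HMG-CoA synthase of sterol synthesis, begins 225 nt after its stop codon. MRP13 (YGR084C), a protein of the small subunit of the mitochondrial ribosome, spans 1020 nt at chrVII:647123-648142 on the reverse strand, and GCD2, a subunit of the translation factor eIF2B, begins 307 nt after it. VTC4 (YJL012C), the catalytic subunit of the vacuolar complex that makes polyphosphate, spans 2166 nt at chrX:411234-413399 on the reverse strand, and MAD3, a protein of the spindle checkpoint, begins 193 nt after it. No gene on the opposite strand comes close downstream, since the nearest begins or ends 1951 nt (RSC9), 2527 nt (TOM20) and 2071 nt (CCT3) after the stop codons of PGA3, MRP13 and VTC4.

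The ends of the 3 coding sequences and the starts of the genes that follow are shown because they bound the gap in which transcription of the upstream gene has to stop. Each is given 5′ to 3′ on the gene's own strand from the R64 genome, with the stop codon or the start codon in capitals. The coding ends lie at chrXIII:20761-20790, chrVII:647123-647152 and chrX:411234-411263, and the starts at chrXIII:20506-20535, chrVII:646786-646815 and chrX:411011-411040.
PGA3 end: tctggcgacgatcaagtcttcgtctttTAA
ERG13 start: ATGaaactctcaactaaactttgttggtgt
MRP13 end: caggaatccaccgaaaaagaggaaaaaTAG
GCD2 start: ATGagcgaatcggaagccaaatctaggtcg
VTC4 end: tcctttttctgcaacctagttgctaaaTGA
MAD3 start: ATGaaagcgtacgcaaagaaacgtatctct

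Within the gaps, 2 motifs of yeast polyadenylation signals were searched, TATATA, which reads the same on both strands, and AATAAA on the gene's strand. Every gap held TATATA a single time, beginning 15 nt after the stop codon of PGA3, 23 nt after that of MRP13 and 79 nt after that of VTC4. AATAAA was found in the gaps of MRP13 (29 nt after the stop codon) and VTC4 (170 nt after it), and these letters were not in the gap of PGA3. In the gap of MRP13 both motifs lie side by side without overlap. In windows of 193 nt after the stop codon, TATATA was found for 174 of 331 genes (52.6%) and AATAAA for 129 (39.0%), so that neither motif is particular to these genes. Stretches of 30 nt around the TATATA match are shown with the match in capitals, at chrXIII:20729-20758, chrVII:647083-647112 and chrX:411138-411167 on the reverse strand.
PGA3 gap: gaataagcttcgTATATAcaatagaaaaat
MRP13 gap: ccccataggaaaTATATAaataaacatacc
VTC4 gap: gcgccattttttTATATAtgagaactaccc
The share of A and T was 59.1% in the gap of PGA3, 69.1% in that of MRP13 and 69.4% in that of VTC4. The gaps of the 25 other genes followed within 500 nt by one on their strand had 59.0% to 75.2%, with a median of 67.8%, so the gap of PGA3 is near the lower end of that range.

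With gaps this short, the downstream RTI window reaches into the next gene. The mRNA 3′ ends used for the ratio were not used here, so the overlap was computed for an mRNA that ends at the stop codon, and any 3′ UTR only adds to it. At least 275 of the 451 nt of the window (61.0%) lie in ERG13 for PGA3, at least 193 nt (42.8%) in GCD2 for MRP13, and at least 307 nt (68.1%) in MAD3 for VTC4. With a 3′ UTR of at least 176 nt for PGA3, 258 nt for MRP13 or 144 nt for VTC4 the whole window lies in the next gene. None of ERG13, GCD2 and MAD3 is listed with an RTI of its own. The listed values are ratios without read numbers, so the level of transcription of these genes was not analysed here.

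**Figure D1:**
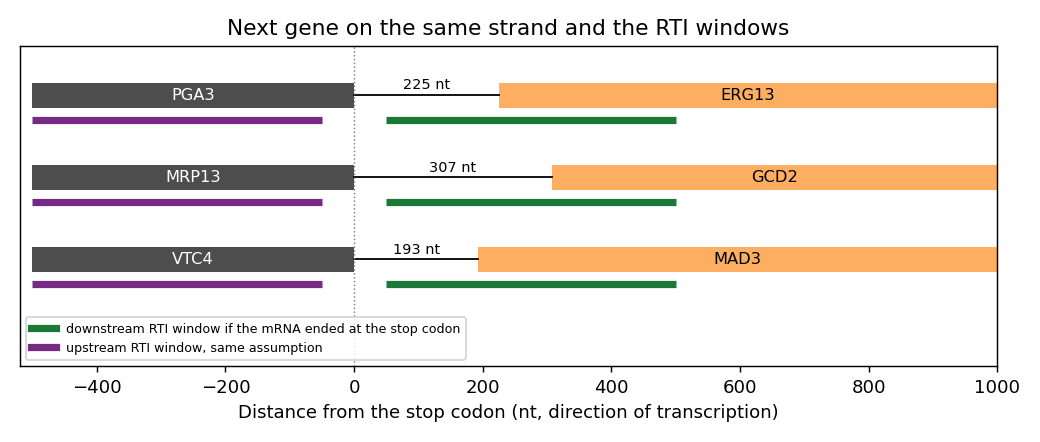
Map of the 3 loci along the direction of transcription, with the distance from the stop codon in nt on the x axis, the upstream gene in grey, the next same-strand gene in orange, and the RTI windows for an mRNA that ends at the stop codon in purple and green. The green window enters the next gene in each locus, after 225 nt for PGA3, 307 nt for MRP13 and 193 nt for VTC4.

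No RTI was listed for PGA3, MRP13 or VTC4 in WT replicate 4, so each rests on 3 sua7-1 and 3 WT libraries. That library lists an RTI for 38 genes, of which 36 lie on the forward strand and 1 on the reverse strand of R64, where all 3 genes lie. The other libraries list 314 to 337 genes each. The values are ratios without their read numbers, so depth and counting error are unknown.

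In WT cells PGA3 and MRP13 already had more than 0.4 reads downstream for each read upstream. The RTI of PGA3 was 0.569, 0.436 and 0.546 in WT replicates 1, 2 and 3, with a mean of 0.517 ± 0.0712 (SD, n = 3). That of MRP13 was 0.681, 0.564 and 0.467, with a mean of 0.571 ± 0.108 (SD, n = 3). The libraries of both genes overlapped, so their order in WT is within the spread. VTC4 was lower, with 0.178, 0.0966 and 0.121 and a mean of 0.132 ± 0.0417 (SD, n = 3), and each of its WT values lay below every WT value of the other members. The median over all genes was 0.0142, 0.00349 and 0.00459 in the same libraries. Ordered by mean WT RTI among the 337 genes, MRP13 was at place 6, PGA3 at place 7 and VTC4 at place 28.

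In sua7-1 cells the ratio passed 1 for PGA3 and MRP13. For PGA3 the mutant libraries (replicates 2, 3 and 4) gave 1.73, 1.66 and 1.67, with a mean of 1.69 ± 0.0341 (SD, n = 3). MRP13 had 2.26, 1.67 and 2.15, with a mean of 2.03 ± 0.314 (SD, n = 3). Reads after the mRNA end thus outnumbered those before it in each mutant library and in no WT library of these genes. VTC4 had 0.280, 0.435 and 0.267, with a mean of 0.327 ± 0.0939 (SD, n = 3), below 1 throughout. Replicate 3, the mutant library with the highest median over all genes (0.0850), was the highest for VTC4 and the lowest for PGA3 and MRP13. An RTI above 1 in every mutant library was found for 5 genes, PGA3, MRP13 and 3 named here after their values were seen. Of the latter, TEF1 (translation elongation factor 1 alpha) had a mean of 0.178 in WT, while RPS14A (1.96) and ARO2 (64.8) were above 1 in WT as well.

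**Figure D2:**
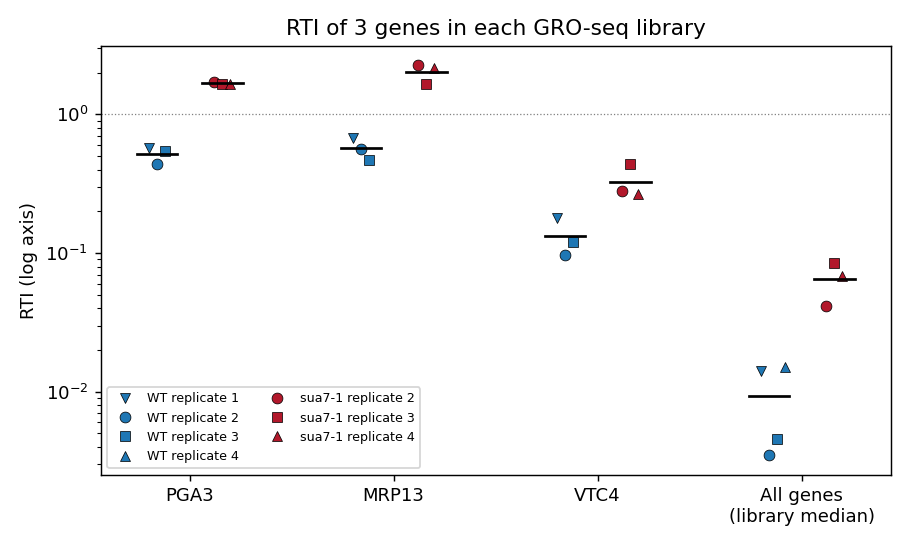
RTI on a log axis for PGA3, MRP13, VTC4 and the library median over all genes, with WT libraries in blue, sua7-1 libraries in red, a marker shape for each replicate and a black bar at the mean of a strain. All red points lie above all blue points for each gene, and for PGA3 and MRP13 the red points lie above the dotted line at an RTI of 1.

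Between the strains, the lowest mutant value exceeded the highest WT value for all 3 genes. The same held for 78.3% of the 337 genes, and the values were known when the genes were chosen, so nothing is read from it. The mean RTI was 3.26 times as high in sua7-1 as in WT for PGA3, 3.55 times for MRP13 and 2.48 times for VTC4. Over the 9 pairs of a mutant with a WT library the ratio ranged from 2.92 to 3.96 for PGA3, from 2.45 to 4.84 for MRP13 and from 1.50 to 4.51 for VTC4. PGA3 thus varied least between libraries, and a pair of VTC4 libraries was within a factor of 1.50.

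On the log2(RTI + 0.002) scale, the log2 fold change from limma was 1.71 (standard error 0.47) for PGA3, 1.83 (0.48) for MRP13 and 1.31 (0.50) for VTC4. These folds are descriptions of chosen genes, and no call is made from them. All genes together had a median of 2.44, and ordered from the highest down MRP13 was at place 225, PGA3 at place 234 and VTC4 at place 258. By the difference of the mean RTI the order was another. MRP13, with 1.46 more in the mutant, was at place 2, PGA3 with 1.17 at place 4 and VTC4 with 0.196 at place 34. With 0.002 added, a large gain in the ratio thus stood beside a fold change under the median of all genes. This order depends on the added constant. With 0.01 added, the median over all genes was 1.59, and PGA3 (1.70) and MRP13 (1.81) lay above it and VTC4 (1.26) below. With 0.0005 added it was 2.85, and all 3 genes lay below it. When each library was divided by its median RTI, which moved the median over all genes from 2.44 to -0.20, the sign turned for all 3 genes, with log2 fold changes of -1.63 for PGA3, -1.51 for MRP13 and -2.01 for VTC4.

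The same can be read from the ratio of each gene to its library's median. PGA3 lay 41.7, 19.6 and 24.5 times above the median in sua7-1 replicates 2, 3 and 4, and 40.1, 125 and 119 times above it in WT replicates 1, 2 and 3. In WT replicate 1 this ratio was near that of sua7-1 replicate 2, so the strains overlapped for PGA3. For MRP13 the mutant libraries gave 54.5, 19.6 and 31.7 and the WT libraries 48.0, 162 and 102, with the same overlap. For VTC4 they did not overlap, since the mutant libraries gave 6.77, 5.12 and 3.92 and the WT libraries 12.5, 27.7 and 26.3.

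**Figure D3:**
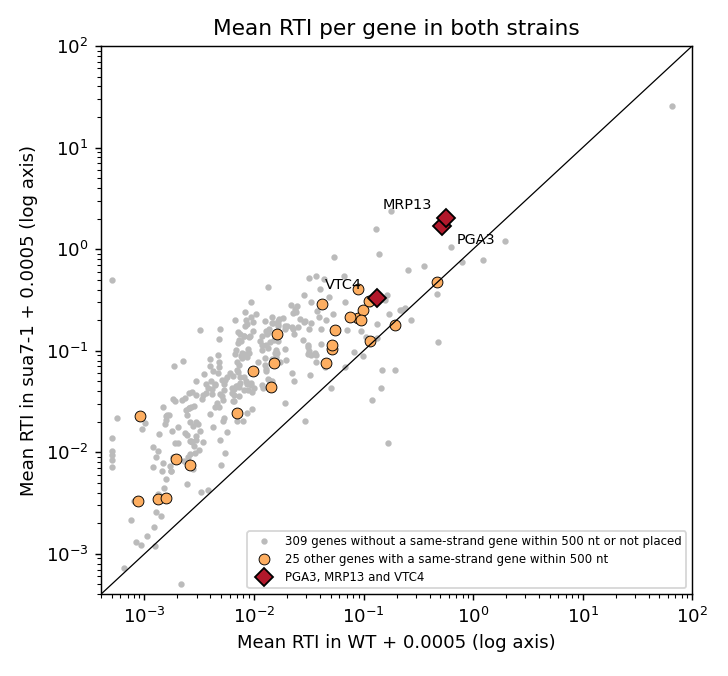
Mean RTI of each gene in WT (x axis) and in sua7-1 (y axis), both on log axes after adding 0.0005, with the line of equal RTI in black, the 25 other close-tandem genes in orange and PGA3, MRP13 and VTC4 as red diamonds. MRP13 (0.571 in WT, 2.03 in sua7-1) and PGA3 (0.517 and 1.69) lie at the upper right, VTC4 (0.132 and 0.327) lies lower among the orange points, and most of the grey genes lie further to the left.

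To set the 3 genes beside others of the same arrangement, the distance from the stop codon to the next same-strand gene was measured for the 331 genes placed in R64. It was under 500 nt for 28 genes, of which 25 are not members, and for 21 of the 25 the next gene encodes a protein. VTC4 had the second shortest distance after YLR342W-A, an uncharacterised gene followed by GAS2 after 110 nt. Close to the limit of 500 nt, ATP1 (454 nt, an ATP synthase subunit) had a mean RTI of 0.0934 in WT and 0.200 in sua7-1, and SCW11 (473 nt, a cell wall protein) had 0.0510 and 0.113. On its far side, HXT3 (507 nt, a glucose transporter) had 0.0947 and 0.155, and SKP1 (508 nt, a ubiquitin ligase subunit) had 0.165 and 0.357, both named for their distance. Over WT replicates 1 to 3 the values ranged from 0.00803 to 0.121 for SCW11 and from 0.0322 to 0.186 for HXT3. ATP1 and SKP1 have values in only 2 mutant libraries. With so few genes and this spread, these means cannot show whether levels differ across the limit, which was not tested.

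The 25 other genes had a higher median RTI than the 303 genes without a same-strand gene within 500 nt in all 7 libraries. Their median was 0.0406, 0.0332, 0.0350 and 0.0636 in WT replicates 1 to 4, where the last covers 6 genes, and 0.0813, 0.157 and 0.0924 in sua7-1 replicates 2, 3 and 4. Over the libraries this gave 0.0431 ± 0.0140 (SD, n = 4) in WT and 0.110 ± 0.0407 (SD, n = 3) in the mutant. The 303 genes had 0.00800 ± 0.00530 (SD, n = 4) and 0.0607 ± 0.0227 (SD, n = 3). The median of the 25 genes was 2.99 to 11.3 times that of the 303 in WT libraries and 1.55 to 2.10 times in mutant libraries. Most of the 303 genes (254) have a gene of the opposite strand as their nearest downstream neighbour. For the remaining 49 the nearest downstream gene is on the same strand, after a longer gap. Their mean of library medians in the mutant was 0.111 ± 0.0398 (SD, n = 3), close to that of the 25, and the ratio of the 25 to the 49 was 1.11, 1.03 and 0.853 in sua7-1 replicates 2, 3 and 4. In WT replicates 1 to 4 it was 1.24, 3.03, 3.35 and 3.47, the last over 6 genes in each class. In the mutant libraries the medians of both tandem classes thus lay close together, with the 25 genes lower in replicate 4. No test was made of these differences, since the class was proposed with results of these libraries known.

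A rise was called at a log2 fold change above 1 with a Benjamini-Hochberg adjusted p under 0.05 over all genes. In limma 14 of the 25 genes rose (56.0%, against 75.1% of all genes), 0 fell and 11 were not called. At an unadjusted p under 0.05, 14 of the 25 were higher in the mutant (56.0%, against 76.6% of all genes) and 0 were lower (against 1.78%). Of the 25, 6 rose without sua7-1 replicate 4, where 65.3% of all genes rose, and 8 without sua7-1 replicate 3, where 63.2% did. Without WT replicate 2 or 3 the count was 10, beside 67.1% and 65.6% of all genes. The median of their log2 fold changes was 1.38, compared with 2.44 for all genes and 2.56 for the 303 genes, and that of PGA3, MRP13 and VTC4 was 1.71. The size of this gap depends on the constant added before the logarithm. With 0.0005 added, the median of the 25 was 1.40 beside 2.85 for all genes, and with 0.01 added 1.14 beside 1.59. Complete separation of the strains in the same direction was found for 18 of the 25 genes (72.0%), against 78.3% of all genes.

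Among the 25, PDA1 (a subunit of pyruvate dehydrogenase, 341 nt before DMC1) had the largest log2 fold change. Its RTI was 0.0153, 0.0280 and 0.0229 in sua7-1 cells and 0.000562, 0, 0 and 0.00110 in WT replicates 1 to 4. On the log2 scale it rose by 3.30, with a standard error of 0.45 and a limma adjusted p of 0.00020. All its WT values lie below the 0.002 added before the logarithm, so the size of this change depends on that constant. SBP1, an RNA-binding protein, rose with a log2 fold change of 2.97, and ADO1, adenosine kinase, which lies 234 nt before ECM27, with one of 2.65. STT3, the catalytic subunit of oligosaccharyltransferase, lies 224 nt before ALK1, nearly the same distance as PGA3 before ERG13. Its RTI was 0.173, 0.324 and 0.248 in sua7-1 cells against 0.116, 0.0913, 0.106 and 0.0842 in WT, a rise of 1.27 on the log2 scale. The levels of PGA3 were several times those of STT3 in every library both share, so a like distance went with unlike levels.

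At the other end, RPS26B (a ribosomal protein with a near-identical copy) had a log2 fold change of 0.07, SNA3 (a protein of vacuolar sorting) 0.11 and YLR342W-A 0.15, none of which passed the test. RPS26B had a mean RTI of 0.465 in WT, near those of PGA3 and MRP13, and 0.471 in the mutant. In the mutant its values of 0.368, 0.488 and 0.558 lay below each of those of PGA3 and MRP13, so genes with a like WT ratio had unlike ratios in the mutant. The gene after RPS26B is SNR4, a small nucleolar RNA gene 386 nt away, while PGA3 and MRP13 lie before protein-coding genes. ATP1 and SCW11 had log2 fold changes of 1.07 and 1.74 and MIN3 0.80, none of which passed the test. The RTI of MIN3 was 0.00255, 0.00320 and 0.00308 in sua7-1 cells and 0.000973, 0.000507 and 0.00103 in WT replicates 1 to 3. These values lie near the added 0.002, which shrinks the log2 fold change. Its mean was 3.52 times as high in sua7-1, and every mutant value lay above every WT value.

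Over the 28 genes, the distance to the next gene had a Spearman correlation of -0.18 with the mean WT RTI and -0.29 with the mean mutant RTI, and over the 25 genes without the members 0.093 and -0.067. The points come from the same libraries and are not independent. Not every gene has a value in each library, and only 6 of the 28 have one in WT replicate 4. These weak values are given as a description. Across wider classes of distance, with PGA3, MRP13 and VTC4 left out, the mean of the WT library medians was 0.0653 for 4 genes under 300 nt, 0.0284 for 21 genes of 300 to under 500 nt, 0.0180 for 41 genes of 500 to under 1000 nt and 0.00752 for 262 genes of 1000 nt or more. In the mutant it was 0.214, 0.0905, 0.123 and 0.0509, so there the class of 500 to under 1000 nt lay above the class next nearer. WT replicate 4 entered the WT means with 2, 4, 4 and 27 genes in these classes, from the nearest to the farthest. Without it the WT means were 0.0659, 0.0227, 0.0181 and 0.00630. The members' own medians, 0.490 over WT replicates 1 to 3 and 1.69 in the mutant, lay above those of each class.

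**Figure D4:**
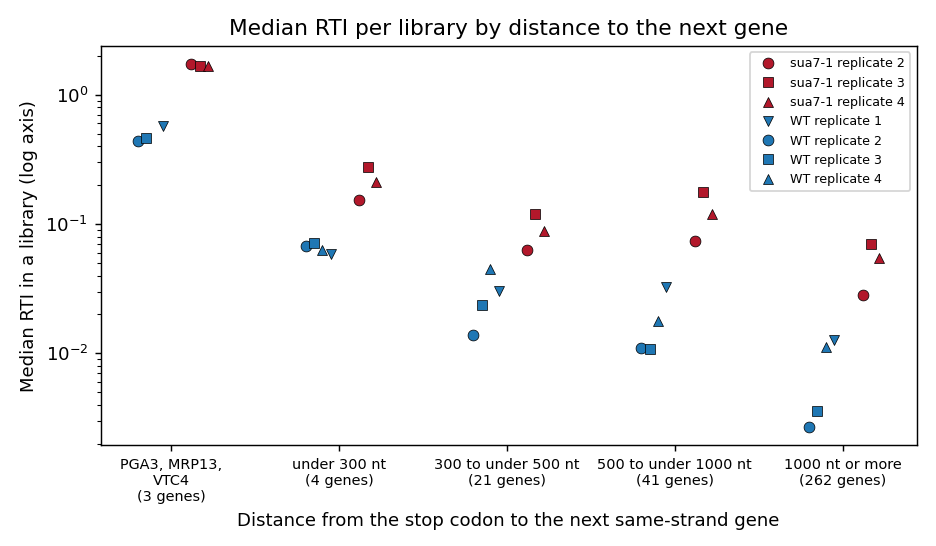
Median RTI in each library, on a log axis, for PGA3, MRP13 and VTC4 and for the other genes grouped by the distance from the stop codon to the next same-strand gene, with WT libraries in blue and sua7-1 libraries in red. The blue points fall from between 0.0589 and 0.0716 under 300 nt to between 0.00269 and 0.0126 at 1000 nt or more. The library medians of the 3 genes lie at 0.436 to 0.569 in WT and 1.66 to 1.73 in sua7-1. VTC4 itself lies lower, with means of 0.132 and 0.327.

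The genes most like each member were sought by the root mean square difference of log2(RTI + 0.002) over 6 libraries, among 285 genes with an RTI in them. PGA3 and MRP13 were each other's nearest gene, with a difference of 0.30. Next for both came GLY1 (threonine aldolase, 0.60 from PGA3 and 0.78 from MRP13) and RPL6A (a ribosomal protein with a near-identical copy, 0.97 and 1.12). GLY1 had a mean of 0.621 ± 0.0423 (SD, n = 3) in WT and 1.05 ± 0.254 (SD, n = 3) in sua7-1, and its next same-strand gene lies 831 nt away. VTC4 was nearest to TAT1 (an amino acid transporter, 0.20), PRS3 (a phosphoribosyl pyrophosphate synthetase, 0.24) and HOM2 (an enzyme of threonine and methionine synthesis, 0.38). Of these only HOM2, 422 nt before SAC3, has a same-strand gene within 500 nt.

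Few genes of the members' own pathways were listed. VTC4 was the only one of 5 genes of the polyphosphate complex, MRP13 the only one of 71 mitochondrial ribosomal protein genes and PGA3 the only one of 4 genes of cytochrome b5 and its reductases. Of 16 phosphate-responsive genes, PHO86, needed for the export of a phosphate transporter from the endoplasmic reticulum, was listed beside VTC4. Its RTI was 0.943, 2.57 and 1.21 in sua7-1 cells against 0.167, 0.103 and 0.116 in WT, and the next gene on its strand lies 2820 nt away. In WT its mean of 0.128 ± 0.0338 (SD, n = 3) was near that of VTC4, and in the mutant each of its values lay above those of VTC4. Of 23 cleavage and termination factor genes only GLC7, a protein phosphatase, was listed, with 0.00524, 0.0283 and 0.00662 in sua7-1 cells and a listed 0 in WT replicates 2 and 3.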

How the data were processed

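The authors trimmed adapters with cutadapt, aligned reads to S288C (R64), counted reads in both windows and deposited their ratio, the RTI, for each gene and library. No source used here names the aligner. Their methods state a distance of at least 500 nt from the mRNA 3′ end to the next same-strand gene, which the 28 genes described as close do not have by the R64 annotation used here. Their deposited mean, log2 ratio and p-value columns hold their own comparison and were not used, and the repeated rows after the main block were left out. Depth is unknown, so no counting interval was made.

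Values of the 337 genes were taken to log2(RTI + 0.002) and fitted in limma 3.58.1 (R 4.3.3), strain as the only factor, with p-values adjusted over all genes. The fit was tested on simulated data. Descriptions were computed in Python 3.11.15 with numpy 2.4.6 and scipy 1.17.1, and 331 genes were placed by systematic name in R64. The methods name 3 biological replicates per strain, and which of the 4 WT libraries are separate cultures is not stated, so the p-values reflect only how these libraries vary, which may be technical. The members and lists were chosen with earlier results of these data known.

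Genes named are the members, the genes that follow them where listed, of the other close-tandem genes the 3 nearest to and farthest from their neighbour and the 3 with the highest and lowest log2 fold change, the 3 genes most like each member, and listed genes of the members' pathways. Others were named after their values or positions were seen. Alternatives were pseudocounts of 0.0005 and 0.01, a minimum mean RTI of 0.01, zeros as missing, libraries divided by their median RTI, limma's trend and robust options, a replicate block, limits of 300 and 1000 nt and each library left out in turn.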

Additional observations from a re-analysis of the deposited data

How the results depend on the processing

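With libraries divided by their median RTI, the log2 fold changes of PGA3, MRP13 and VTC4 were -1.63, -1.51 and -2.01, and the ratio of the mutant to the WT mean of library medians over the 25 other close-tandem genes was 0.284 in place of 2.56. In that setting 22 genes rose and 52 fell, against 253 and 3, and of the 25 genes 1 rose and 7 fell, against 14 and 0. By its construction this scaling removes a shift shared by all genes. With a pseudocount of 0.01, 5 genes fell. With a distance limit of 1000 nt the ratio was 5.15. Leaving out each library in turn gave log2 fold changes of 1.59 to 1.79 for PGA3, 1.69 to 1.97 for MRP13 and 1.09 to 1.55 for VTC4, and a ratio of 2.02 to 3.04. Without a library, 213 to 277 genes rose and 2 to 4 fell, and 6 to 16 of the 25 rose, with 6 without sua7-1 replicate 4 and 8 without sua7-1 replicate 3. WT replicate 4 holds no member. Deviations of same-numbered libraries from their strain's mean had r = 0.13, -0.02 and -0.03 for numbers 2, 3 and 4, across 311, 324 and 38 genes. Pairs of unlike number ranged from -0.20 to 0.22. These values cannot tell whether same-numbered libraries were prepared together, and the labels do not say. The replicate block gave 1.79, 1.92 and 1.67 for the members and 240 rises among 302 genes that could be fitted. Of the 25 genes 12 rose there, while LEU4 and ATP1, each lacking a value in a mutant library, could not be fitted. Every other setting run kept the members' sign. Without read numbers, the precision of a single ratio cannot be given.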
